A study of Homo sapiens with 4 samples.

Results

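Long skipped exons are cassette exons of 500 nt or more, and 782 of the 18682 skipped exons with enough reads in the deposited splicing estimates were of this kind. They were chosen by length alone, with at least 20 informative reads (reads that fit only the isoform with the exon or only the isoform without it) in each group's file and 1 event per exon. They lay in 683 genes, and 729 of them in protein-coding genes. Before the read minimum there were 1017 different exons of this length.

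The data are inclusion levels from RNA sequencing of MDA-LM2, a cell line that metastasises to lung and was derived from the human breast cancer line MDA-MB-231. Per the labels, 4 libraries were made, 2 from cells transfected with small interfering RNA against SNRPB2 (siSNRPB2) and 2 from cells transfected with a control siRNA (siCtrl). RNA was taken 48 h after transfection, and knockdown by the 2 siRNAs selected was over 95% by quantitative PCR. Both groups shared the cell line and the lipid transfection, and the labels do not tie a library to 1 of these siRNAs. Each file holds a single inclusion level per exon for its group, so the spread between libraries is unknown, and differences carry no SD, no n and no replicate test.

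The product of SNRPB2, U2B'', belongs to the U2 snRNP, the particle that binds the branch point upstream of a 3' splice site. Most vertebrate exons are short, and splice sites are thought to be recognised in pairs across the exon. Long internal exons are less common. Several of them encode large protein modules: the big exon of BRCA1, the repeat exon of ASPM, the exon that sets apart the long form of Ki-67 (MKI67), and the exon that sets apart Nogo-A among the reticulon products of RTN4. Skipping of such an exon is known as a source of shorter proteins, such as somatic NASP and the shorter SGO1.

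A read that skips a long exon must cross 1 junction, while reads that include it can lie anywhere inside it. The junctions below belong to exons on which the results turn. They were read from GENCODE 29 transcript sequences of the GRCh38 build, 5' to 3' on the transcript strand, with 15 bases on each side. Capitals mark the bases downstream of the junction. The first 2 sequences of a gene are found with the exon included, the third only with the exon skipped.
NIN, chr14:50756492-50758630, minus strand, into the exon: gcttcaggagggaagGGAAAAAATGGAAAC
NIN, out of the exon: agttgaacttctgagATATGAATCTGAAAA
NIN, skipping: gcttcaggagggaagATATGAATCTGAAAA
NASP, chr1:45607321-45608337, plus strand, into the exon: atgataacatagatgAGGAAGCAAGGGAAG
NASP, out of the exon: tgaaagagggtgaagAAACTGAAGGCTCAG
NASP, skipping: atgataacatagatgAAACTGAAGGCTCAG
SGO1, chr3:20174249-20175055, minus strand, into the exon: catttcaaatagaagATCAGATACCTACTA
SGO1, out of the exon: caaaaactcctaccaCTACACCACCTGAAA
SGO1, skipping: catttcaaatagaagCTACACCACCTGAAA
FBXO38, chr5:148427213-148427947, plus strand, into the exon: ccagagaattgtcagTAAGTGGAAAAGGCA
FBXO38, out of the exon: tggtatctgagtcagAAGTAGCCAAAACAA
FBXO38, skipping: ccagagaattgtcagAAGTAGCCAAAACAA
RTN4, chr2:55025086-55027485, minus strand, into the exon: tacgctcctctgcagAAAATATGGACTTGA
RTN4, out of the exon: tgagtaaaacttcagTTGTTGACCTCCTGT
RTN4, skipping: tacgctcctctgcagTTGTTGACCTCCTGT
DIS3L2, chr2:232259841-232260685, plus strand, into the exon: actccagagggcaagGCCAGGATGCCAAAC
DIS3L2, out of the exon: gctctggataaaaatATCCTTGATGAATGG
DIS3L2, skipping: actccagagggcaagATCCTTGATGAATGG

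The siSNRPB2 file listed 42670 events with 93580246 reads assigned to them, and the siCtrl file 42159 events with 100579230, where a read can belong to several overlapping events. The median long exon had 331.5 informative reads in siSNRPB2 and 350.5 in siCtrl, against 137 and 158 over all tested exons. Their range was 20 to 230705 in siSNRPB2 and 20 to 250307 in siCtrl, the highest in PLEC, which encodes the cytoskeletal linker plectin. Of 8 mesenchymal and basal-like markers, 5 lay on an event and summed to 46972 reads in siSNRPB2 and 62529 in siCtrl. They ranged from S100A4 with 127 and 179 to CD44 with 38883 and 50227. Luminal markers (5 of 8 on an event) summed to 723 reads in siSNRPB2 and 905 in siCtrl. They ranged from ESR1 at 10 and 1 to ESRP2 at 362 and 479, which is above S100A4. Blood markers (2 of 5) summed to 38 and 52 reads and the endothelial one (1 of 4) to 55 and 25, siSNRPB2 before siCtrl.

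The first question was whether long exons were, as a class, included less or more in cells with SNRPB2 knocked down. They moved in both directions, and their centre did not shift. Median ψ, the estimated fraction of transcripts that keep the exon, was 0.89 in siSNRPB2 and 0.86 in siCtrl, and the median difference within an exon was 0, as it was over all tested exons. The quartiles of the difference were -0.02 and 0.03. An exon was called when the Bayes factor in the authors' deposited table was at least 10 and ψ differed by at least 0.1. By that rule 51 long exons (6.52%) were called lower in siSNRPB2, where 7.61% of all tested exons were. Another 71 (9.08%) were called higher in siSNRPB2, where 7.13% of all tested exons were. Together 122 of 782 long exons (15.6%) were called, against 14.7% of all tested exons.

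Lower calls made up 41.8% of calls among long exons and 51.6% among all tested exons. The nearest shorter class, 706 exons of 300 nt to under 500 nt, had the same lean, with 56 called lower (7.93%) and 78 called higher (11.05%). Among exons of 1 to 49 nt the lean was the other way, with 7.69% called lower and 4.86% called higher. Within the long exons, 29 were called lower and 45 higher under 1000 nt (439 exons), 15 and 16 from 1000 nt to under 2000 nt (232 exons), and 7 and 10 at 2000 nt or more (111 exons). Calls had a median ψ difference of -0.23 where lower and 0.28 where higher. The authors' intervals of both groups were disjoint in 121 of the 122 called exons.

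**Figure D1:**
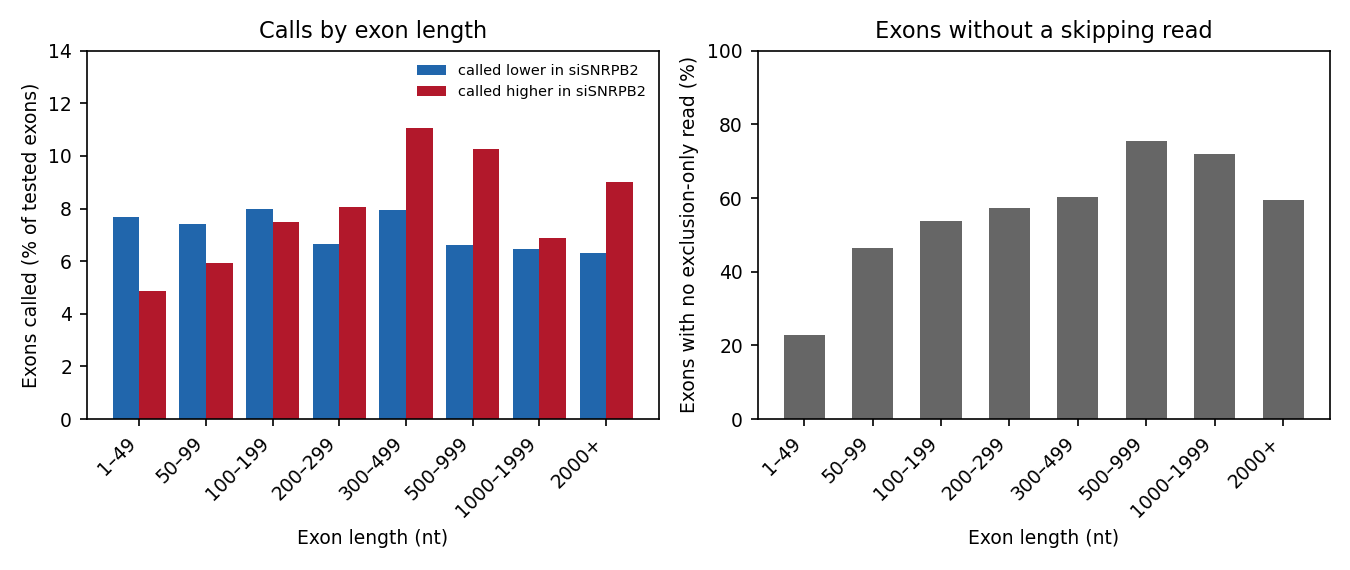
Share of tested skipped exons called lower (blue) or higher (red) in siSNRPB2, in percent (left), and share with no read across the skipping junction in either file, in percent (right), by exon length in nt. Higher calls outnumber lower calls from 200 nt upward, and 75.4% of exons of 500 nt to under 1000 nt have no exclusion-only read, against 22.9% of those of 1 to 49 nt.

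Most long exons were near full inclusion or in between, and few were near full exclusion. In both groups ψ was at least 0.9 for 324 exons (41.4%, against 38.3% of all tested exons). It was at most 0.1 in both for 80 exons (10.2%, against 20.4%). For the other 378 (48.3%, against 41.4%) it lay between or crossed a bound.

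Overlap among the members was limited. They formed 704 groups that do not overlap each other, and 142 exons shared sequence with another long exon, as the nested exons of FBXO38, CHD8 and MAP2 do. Calls fell in 112 genes, and no gene had long exons called in both directions.

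**Figure D2:**
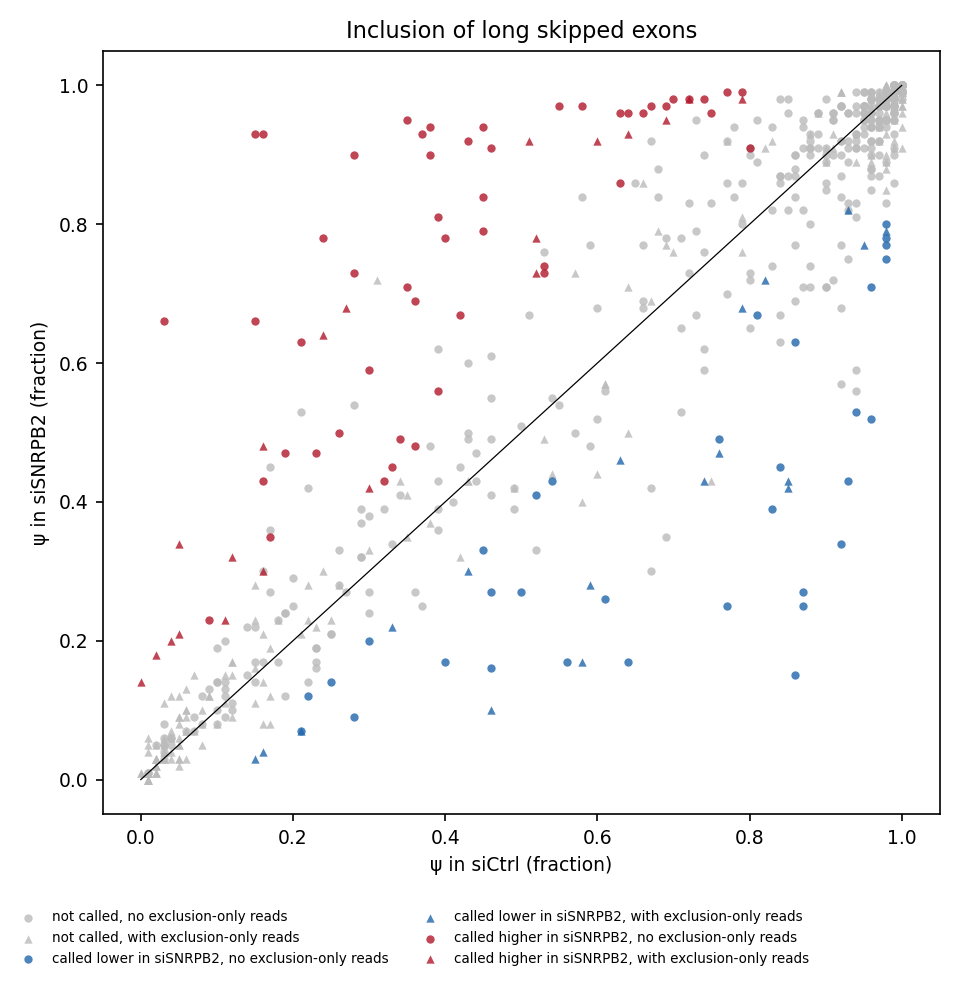
ψ (fraction) of each of the 782 long exons in siSNRPB2 (vertical axis) and siCtrl (horizontal axis). Triangles have exclusion-only reads in at least 1 file and circles have none, blue is called lower in siSNRPB2 (51), red called higher (71), and grey not called; the line marks equal ψ.

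What the ψ of a long exon rests on differs from exon to exon. No exclusion-only read was counted in either file for 564 long exons (72.1%, against 51.1% of all tested exons), and 84 of the 122 calls were among them, 33 lower and 51 higher. In such exons ψ was estimated from reads on the exon set against reads on the flanking exons. The 218 exons with exclusion-only reads held 18 lower (8.26%) and 20 higher (9.17%) calls, against 9.52% and 8.73% of all tested exons with them. Pooled over all 782 exons, 28545 of 1348436 informative reads skipped the exon in siSNRPB2 (2.12%, exact 95% interval 2.09 to 2.14) and 31619 of 1501993 in siCtrl (2.11%, 2.08 to 2.13). Without the 5 exons that have the most such reads, the shares were 1.03% (1.01 to 1.05) in siSNRPB2 and 1.12% (1.11 to 1.14) in siCtrl. These intervals cover counting error only, since reads without molecular identifiers are not independent molecules. Exclusion-only reads occurred in 173 long exons in each group, in 128 of them in both.

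A second measure compared inclusion-only with exclusion-only reads directly, by a 2-sided Fisher's exact test adjusted by Benjamini-Hochberg over all tested exons, requiring adjusted p under 0.05 together with a share difference of at least 0.1. It compares the reads of the files, not the conditions. By it 21 long exons were lower in siSNRPB2 (2.69%, background 5.28%) and 26 higher (3.32%, background 5.27%). Only exons whose skipping junction was read can be called this way, and fewer long exons than tested exons have such reads. Among the 218 long exons that do, 9.63% were lower and 11.93% higher, against 10.81% and 10.79% of all tested exons with such reads. The lower shares over all 782 are thus no evidence of fewer changes in long exons. Unadjusted p of the same test was under 0.05 for 137 long exons, without a minimum share difference. The matching count over all tested exons is not given here. Both rules held for 6 exons lower (background 2.93% of all tested exons) and 8 higher (background 2.78%), and no exon was called in opposite directions. Where the skipping junction was read, these are 6 and 8 of 218 long exons, against 547 and 520 of 9132 tested exons. In a long exon the many reads inside it dilute the share, so a large change in ψ can go with a small change in share.

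NIN encodes ninein, which anchors microtubules at the centrosome. Its 2139-nt exon, fully coding and a whole number of codons, showed the largest drop in exon reads relative to the flanks among deeply covered long exons. Inclusion was 0.17 (the authors' interval 0.16 to 0.18) in siSNRPB2 and 0.58 (0.56 to 0.61) in siCtrl, and the exon was called lower. The exon held 1338 inclusion-only reads in siSNRPB2 and 5161 in siCtrl, while the flanks held 2096 and 2369 reads that fit both isoforms. Scaled to all reads on tested exons, that is a log2 change of -1.76 in the exon and 0.01 in the flanks. The skipping junction was read 16 times in siSNRPB2 and 13 times in siCtrl, 1.18% (exact 95% interval 0.677 to 1.91) and 0.251% (0.134 to 0.429) of informative reads. The read test gave an adjusted p of 5.37e-04 (Fisher's exact test, Benjamini-Hochberg), but the share difference stayed under 0.1.

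NASP encodes a histone H1 and H3 chaperone whose long exon distinguishes the form first found in testis from the somatic one. Its exon reads, 2135 in siSNRPB2 and 6587 in siCtrl, and its skipping reads, 2677 and 2490, were all above 2000. Skipping reads were 55.6% of informative reads in siSNRPB2 and 27.4% in siCtrl, with ψ at 0.07 and 0.21.

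SGO1 encodes shugoshin, which protects centromeric cohesion in mitosis, and its 807-nt exon is the one that the shorter isoform lacks. It was chosen here after its values were seen. The skipping junction was read 44 times among 1325 informative reads in siSNRPB2 (3.32%, exact 95% interval 2.42 to 4.43). In siCtrl it was read 0 times among 1714, which allows a share of up to 0.175% by a floor of 3 counts and up to 0.215% by the exact interval. ψ was 0.79 in siSNRPB2 and 0.98 in siCtrl, called lower. The exon had 1281 inclusion-only reads in siSNRPB2 and 1714 in siCtrl, and the flanks 128 and 325. The read test gave an adjusted p of 1.70e-14 (Fisher's exact test, Benjamini-Hochberg) at a share difference under 0.1.

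FBXO38 encodes an F-box protein of an SCF ubiquitin ligase. Its coding exon is listed as 2 nested exons, of 735 and 510 nt, that share the 3' splice site and the skipping reads. For the longer one ψ was 0.43 (0.39 to 0.48) in siSNRPB2 and 0.74 (0.69 to 0.79) in siCtrl. The skipping junction was read 136 times in siSNRPB2 and 54 times in siCtrl, and the exon 544 and 818 times. The shorter one had a ψ of 0.47 in siSNRPB2 and 0.76 in siCtrl. Both were lower by both rules, with adjusted p of 3.41e-14 and 1.84e-12 (Fisher's exact test, Benjamini-Hochberg).

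The other exons lower by both rules had fewer reads. An exon of C5orf56, a 1015-nt stretch with no coding sequence, had a ψ of 0.10 in siSNRPB2 and 0.46 in siCtrl, with 16 skipping reads in siSNRPB2 and 0 in siCtrl. DHX16, a helicase that acts in spliceosome activation, had an exon of 676 nt that GENCODE 29 does not list as an exon. Its ψ was 0.03 in siSNRPB2 and 0.15 in siCtrl, on 22 exon and 68 skipping reads in siSNRPB2, against 89 and 17 in siCtrl. SRD5A1, a steroid 5-alpha-reductase, had a 502-nt exon with ψ at 0.04 in siSNRPB2 and 0.16 in siCtrl, on 16 and 90 such reads in siSNRPB2, against 41 and 63 in siCtrl.

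Of the 8 exons higher by both rules, 6 were non-coding, and ψ was low in most of them in siCtrl. DIS3L2 encodes a 3'-to-5' exonuclease of uridylated RNAs, and its 845-nt non-coding exon was read 81 times in siSNRPB2 and 0 times in siCtrl, while its skipping junction was read 2 times and 20 times. ψ was 0.14 (0.11 to 0.18) in siSNRPB2 and 0.00 (0.00 to 0.01) in siCtrl, and adjusted p was 7.55e-17 (Fisher's exact test, Benjamini-Hochberg). Its flanks had 203 reads in siSNRPB2 and 248 in siCtrl. Inclusion of this exon was thus read in siSNRPB2 alone, at a low level.

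GYPC, a red cell membrane glycoprotein gene, had an 818-nt exon read 46 times in siSNRPB2 and 6 times in siCtrl, with 42 and 49 skipping reads. Its ψ was 0.18 in siSNRPB2 and 0.02 in siCtrl. The 900-nt exon of DPY19L3, a tryptophan C-mannosyltransferase, had a ψ of 0.21 and 0.05 on 57 and 56 reads in siSNRPB2 against 38 and 237 in siCtrl. RHOC, a small GTPase of cell motility, had a 1153-nt non-coding exon with ψ at 0.30 in siSNRPB2 and 0.16 in siCtrl. Its inclusion-only reads were 276 in siSNRPB2 and 277 in siCtrl, a scaled log2 change of 0.18, while skipping reads were 1 and 37, and the exon spans an annotated intron, so reads of an unspliced form can be among those that include it.

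CARS2, the mitochondrial cysteinyl-tRNA synthetase, had a 980-nt exon with ψ at 0.23 in siSNRPB2 and 0.11 in siCtrl. TMEM164 had a 664-nt exon at 0.78 and 0.52, with 12 flank reads in siSNRPB2 and 0 in siCtrl. The remaining exons of this group are uncertain. TNXB (0.34 in siSNRPB2 and 0.05 in siCtrl) had only 21 and 6 exon reads. Whether its pseudogene copy covers this exon was not checked. PILRB (0.68 and 0.27) has a close paralogue, so its reads could be split between copies.

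**Figure D3:**
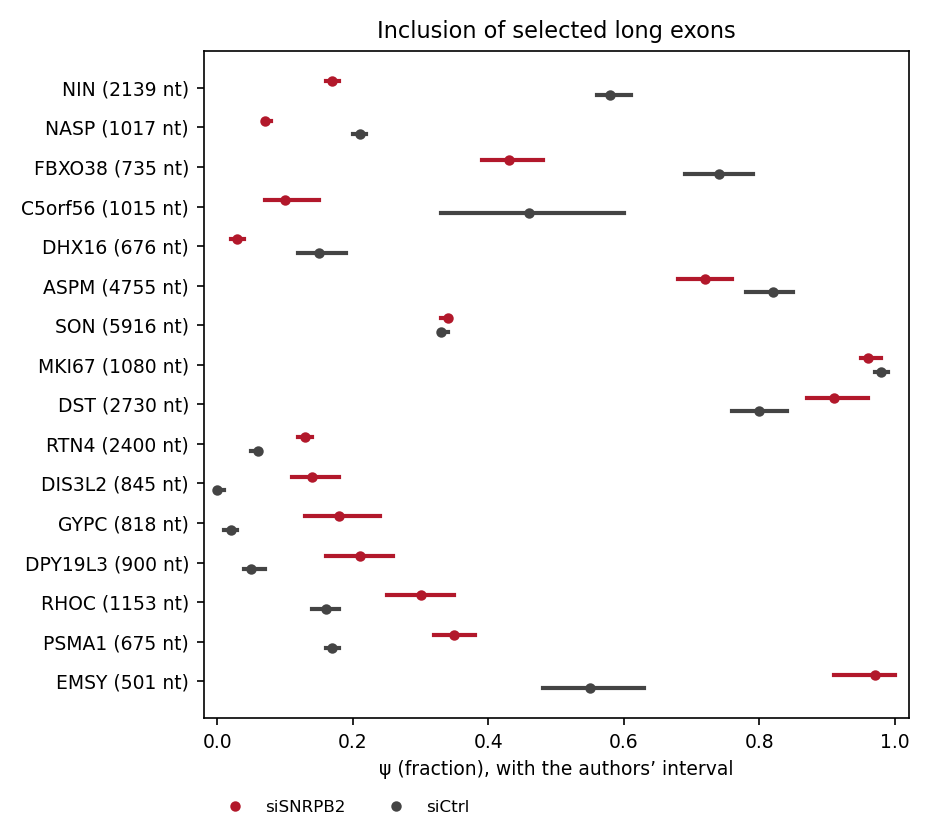
ψ (fraction, horizontal axis) of 16 long exons in siSNRPB2 (red) and siCtrl (dark grey), as the authors' estimate with the authors' interval, 1 row per exon with its length. The intervals are disjoint for NIN, NASP, FBXO38 and RTN4, and they touch or overlap for SON and MKI67.

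The largest ψ differences were found in exons without skipping reads or with very few, and there reads on the flanks often moved as much as reads on the exon. Lower in siSNRPB2 by this measure were FCGRT, the neonatal Fc receptor (0.25 in siSNRPB2 and 0.77 in siCtrl), and SMOX, spermine oxidase (0.17 and 0.64). In both the exon had fewer reads, 74 in siSNRPB2 against 211 in siCtrl for FCGRT and 60 against 183 for SMOX. USP45, a deubiquitinase, had 122 inclusion-only reads in siSNRPB2 and 234 in siCtrl, with ψ at 0.17 and 0.56. In RIC8B, a chaperone of G protein alpha subunits, ψ was 0.39 in siSNRPB2 and 0.83 in siCtrl, yet the exon had 353 reads in siSNRPB2 and 291 in siCtrl, and the flanks 142 and 53. Likewise XIRP1 had 87 exon reads in siSNRPB2 and 78 in siCtrl, with 125 and 25 on the flanks. In MBD5 both differed, with 64 exon reads in siSNRPB2 and 125 in siCtrl, and 26 and 0 flank reads. ZSCAN25 (0.42 in siSNRPB2 and 0.85 in siCtrl), CCDC18-AS1 (0.43 and 0.85) and UBXN4 (0.45 and 0.84) complete the named group.

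Among the largest higher calls the flanks were often nearly empty in siSNRPB2. SALL4, an embryonic zinc finger factor, had ψ at 0.95 in siSNRPB2 and 0.35 in siCtrl with 107 and 75 exon reads but 0 and 46 flank reads. DNASE1 (0.93 and 0.37) had 0 flank reads in siSNRPB2 and 55 in siCtrl, and PSD4 (0.90 and 0.38) had 0 and 44. MAP2 has a long exon found in the high-molecular-weight forms of this neuronal microtubule protein. It had 170 reads in siSNRPB2 and 32 in siCtrl, with 0 and 15 flank reads, and ψ was 0.93 in siSNRPB2 and 0.16 in siCtrl.

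Others had more reads on the exon itself in siSNRPB2. EMSY encodes a BRCA2-binding repressor, and its 501-nt coding exon had 433 reads in siSNRPB2 and 270 in siCtrl, with 629 and 769 flank reads and ψ at 0.97 and 0.55. MOK, a kinase gene, had 182 exon reads in siSNRPB2 and 55 in siCtrl at ψ 0.63 and 0.21. SPG7, paraplegin of the mitochondrial inner membrane, had 212 and 98 at ψ 0.66 and 0.15, on a stretch that spans 7 annotated introns. SNCAIP (0.94 in siSNRPB2 and 0.38 in siCtrl) and TRMT44 (0.92 and 0.51) also had more exon reads in siSNRPB2, with fewer flank reads. CYP2R1 (0.91 and 0.46) and ZNF530 (0.81 and 0.39) had fewer exon reads in siSNRPB2, with scaled log2 changes of -0.08 and -0.40, and their flanks changed by -1.75 and -1.53.

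To separate exon from flank, both were scaled to all reads on tested exons, on the log2(reads + 1) scale, in the 596 long exons with at least 20 flank reads in each file. The median log2 change was 0.06 in the exon, 0.03 in the flanks and 0.04 in their ratio, against 0.05, 0.00 and 0.02 over all tested exons. The ratio had an SD of 0.82 across long exons. In the 44 lower calls with such flanks, the median exon change was -0.31 and the median flank change 0.55. Over all tested exons called lower (1322), the exon carried more of the change, at -0.83, and the flanks less, at 0.19. The 55 higher calls had a median exon change of 0.36 and a flank change of -0.49, against 0.88 and -0.20 in the 1225 higher calls among all tested exons. The flanks moved further than the exon in 26 of 44 lower and 26 of 55 higher calls among long exons. Among all tested exons this was so in 340 of 1322 and 329 of 1225. In the nearest shorter class, 300 nt to under 500 nt, it was so in 22 of 48 and 24 of 65. Median exon and flank changes in that class were -0.52 and 0.32 in lower calls and 0.83 and -0.34 in higher calls. The calls were defined by ψ, which rests on these same reads, so these figures describe the calls and are no test of them.

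**Figure D4:**
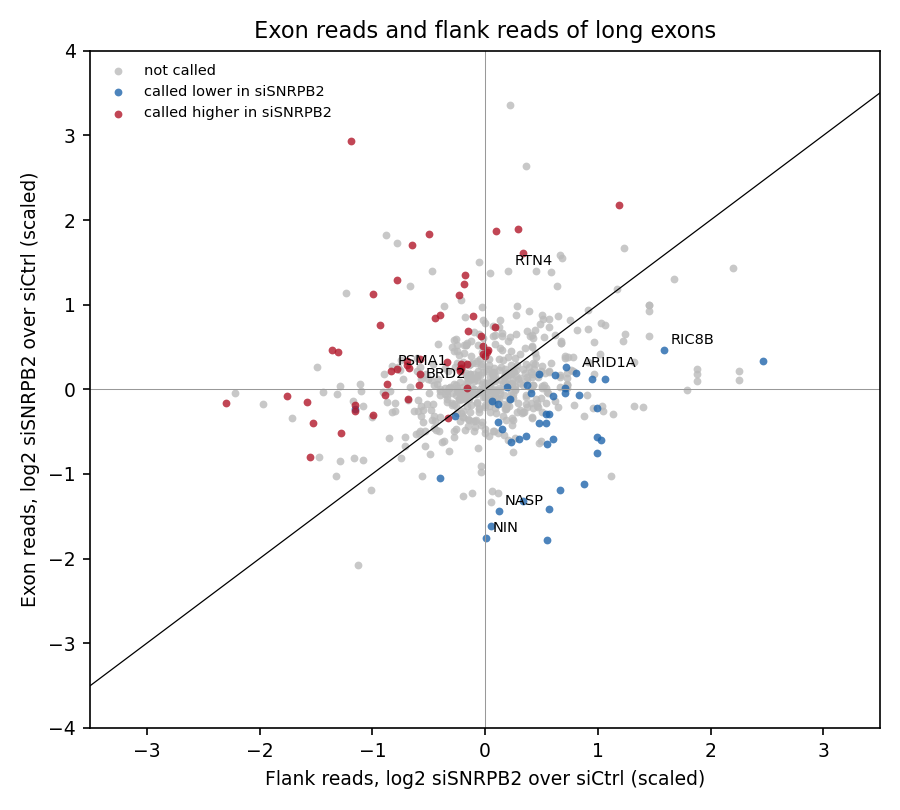
Change of inclusion-only reads on the exon (vertical axis) and of reads fitting both isoforms on the flanks (horizontal axis), log2 of siSNRPB2 over siCtrl after scaling, for long exons with at least 20 flank reads in each file (596, of which 1 lies outside the axes). Blue is called lower, red called higher, and the line marks equal change; NIN and NASP lie near 0 on the horizontal axis, RIC8B and BRD2 away from it.

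Among the 304 long exons with at least 200 inclusion-only and 100 flank reads in each file, minimums set after the values were seen, the median log2 change of the ratio was -0.01, with 5th and 95th percentiles of -0.76 and 0.77. Of these, 23 were called lower and 28 higher, and the ratio was lower by 2 times or more in 6 and higher by as much in 5. The matching counts over all tested exons at these read minimums are not given here. Whether long exons of this depth differ from other exons of the same depth was thus not tested. NIN (-1.77) and NASP (-1.56) had the lowest log2 ratio changes in this set. Next came HFE (-1.34), the hemochromatosis gene, with 206 exon reads in siSNRPB2 and 547 in siCtrl, at ψ 0.86 and 0.99 and not called. DUSP10 (-1.12), PTRH2 (-1.10) and GPALPP1 (-1.07) followed. PTRH2, a mitochondrial peptidyl-tRNA hydrolase, had ψ at 0.08 in siSNRPB2 and 0.17 in siCtrl and missed the 0.1 minimum.

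At the other end, SLC33A1 (1.43), an acetyl-CoA transporter, had 254 exon reads in siSNRPB2 and 320 in siCtrl but 100 and 342 flank reads. RTN4 (1.19) was the highest in which the exon itself had more reads. Its 2400-nt exon, specific to the neurite growth inhibitor Nogo-A, had 1920 inclusion-only reads in siSNRPB2 and 830 in siCtrl, with 1336 and 1315 on the flanks. ψ was 0.13 (0.12 to 0.14) in siSNRPB2 and 0.06 (0.05 to 0.06) in siCtrl. Its difference of 0.07 was under the minimum, so it was not called, although the authors' deposited table gives it the maximum Bayes factor of 1e+12. Skipping reads were also higher, 28 in siSNRPB2 and 1 in siCtrl, 1.44% (exact 95% interval 0.957 to 2.07) and 0.120% (0.00305 to 0.669) of informative reads. For this exon both read classes were higher in siSNRPB2. PSMA1 (1.05), a proteasome subunit, had 1038 and 1017 exon reads but 816 flank reads in siSNRPB2 and 1653 in siCtrl, at ψ 0.35 and 0.17.

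Among genes listed for a known long exon, 18 such exons were tested in 17 genes, with 4 called lower and 3 higher and a median difference of -0.005. Over all 125 tested exons of these genes 14 were called lower and 19 higher. ASPM encodes a spindle pole protein, and a known variant lacks its large exon of calmodulin-binding repeats. That 4755-nt exon was called lower at ψ 0.72 (0.68 to 0.76) in siSNRPB2 and 0.82 (0.78 to 0.85) in siCtrl. It had 64 skipping reads in siSNRPB2 and 36 in siCtrl, and 10296 and 14602 inclusion-only reads. PRRC2B, an RNA-binding protein, had ψ at 0.82 in siSNRPB2 and 0.93 in siCtrl and was called lower. DST, the plakin dystonin, was called higher at 0.91 and 0.80, with no skipping read in either group.

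NIN and NASP, described above, are the other lower calls of this list, and the nested exons of MAP2 the other higher calls. The exons that follow were not called. NUMA1, a spindle pole organiser, had ψ at 0.92 in siSNRPB2 and 0.97 in siCtrl, with 31 skipping reads against 4 beside 24357 and 26517 inclusion-only reads. MKI67 was at 0.96 in siSNRPB2 and 0.98 in siCtrl, with 22 and 14 skipping reads. BRCA1 was at 0.99 in both, with 5582 and 6797 exon reads and 0 skipping reads. SON, a nuclear speckle scaffold, was at 0.34 in siSNRPB2 and 0.33 in siCtrl. Its 40315 and 40451 inclusion-only reads came with 0 exclusion-only reads, which allows a share of up to 0.00744% in siSNRPB2 and 0.00742% in siCtrl. MAP4, the ubiquitous relative of MAP2, was at 0.07 and 0.06 with 256 and 396 skipping reads, ZFHX3 at 0.98 and 1.00, and MDC1, a DNA damage adaptor, at 0.93 and 0.88.

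Mitotic and centrosomal genes held 11 long exons, of which NIN, ASPM and SGO1 were called lower and NINL and ESPL1 higher (median difference 0). Over all 141 tested exons of these genes 15 were called lower and 10 higher, and over every tested exon 7.61% and 7.13%. NINL, the ninein-like protein, had ψ at 0.47 in siSNRPB2 and 0.23 in siCtrl, with 442 and 426 exon reads and 307 and 602 flank reads. ESPL1, separase, was at 0.73 and 0.53 on 1221 and 1127 exon reads. TACC3, a spindle protein, was at 0.99 in both groups.

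Chromatin and transcription genes held 15 long exons, 4 called lower and 4 higher (median 0), in 5 genes since nested exons count separately. Over all 211 tested exons of this list 23 were called lower and 21 higher. ARID1A, a subunit of the BAF remodelling complex, had ψ at 0.78 in siSNRPB2 and 0.98 in siCtrl, with 2653 and 2638 exon reads and 680 and 442 flank reads. PHF3, which binds RNA polymerase II, was called lower with ψ at 0.68 in siSNRPB2 and 0.79 in siCtrl, and the other 2 lower calls are the nested exons of MBD5. BRD2, a BET bromodomain protein, was called higher at 0.99 and 0.77 on 3475 and 3803 exon reads, with 960 flank reads in siSNRPB2 and 1638 in siCtrl. The remaining 3 higher calls are nested exons of the remodeller CHD8, at 0.49, 0.45 and 0.43 in siSNRPB2 and 0.34, 0.33 and 0.32 in siCtrl.

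Cytoskeletal and scaffold genes held 23 long exons, 0 called lower and 4 higher (median 0.01), and over all 197 tested exons of these genes 12 were called lower and 25 higher. The 4 calls are the nested exons of MAP2, DST, and SHROOM3, an apical constriction protein, at 0.56 in siSNRPB2 and 0.39 in siCtrl. The exon of PLEC was at 1.00 in both groups, with 59 skipping reads in siSNRPB2 and 123 in siCtrl. Zinc finger genes held 42 long exons, often the single exon that carries the finger array, with 1 called lower and 5 higher (median 0), and over all 490 tested exons of this list 50 were called lower and 52 higher. The lower call was ZSCAN25. Besides ZNF530 the higher calls were ZBTB8A (0.64 in siSNRPB2 and 0.24 in siCtrl), ZNF717 (0.93 and 0.64), ZNF131 (0.98 and 0.74) and ZNF707 (0.23 and 0.09).

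RNA processing genes held 11 long exons, with PRRC2B called lower and 0 higher (median 0), and 20 lower and 12 higher calls over all 172 tested exons of this list. Several are exons kept at very low levels: RBM39, an SR-related splicing factor, at ψ 0.00 in siSNRPB2 and 0.01 in siCtrl, CLK4 at 0.01 and 0.01, SCAF11 at 0.01 and 0.02 and CPSF6 at 0.03 and 0.02. DNA replication and repair genes held 6, of which NASP was called lower, and 11 lower and 12 higher calls over 141 tested exons. Golgi and trafficking genes held 5, and 11 lower and 17 higher calls over 158 tested exons. In that group the Rab11-binding protein RAB11FIP5 had ψ at 0.30 in siSNRPB2 and 0.43 in siCtrl (called lower), and RAB11FIP1 at 0.42 and 0.30 (called higher). The skipping junction of RAB11FIP1 was nevertheless read 15 times in siSNRPB2 and 0 times in siCtrl. Outside the 8 lists were 669 long exons, with 40 lower and 55 higher calls.

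None of the 5 longest exons was called. MUC4, a membrane mucin, has the longest at 12708 nt, with ψ at 0.98 in both groups. FSIP2 (9437 nt) was at 0.29 in siSNRPB2 and 0.20 in siCtrl, XIRP2 (9379 nt) at 0.90 and 0.86, and UNC13B (8247 nt) at 0.01 in both. UNC13B, a synaptic vesicle priming factor, had 37 skipping reads in siSNRPB2 and 113 in siCtrl beside 192 and 202 inclusion-only reads, and was higher by the read test. ANK3, ankyrin-G, had ψ at 0.43 in siSNRPB2 and 0.75 in siCtrl for its 7812-nt exon, but the intervals (0.23 to 0.66 and 0.53 to 0.93) overlap and the flanks had 0 reads.

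At the length threshold, values just inside were 0.25 in siSNRPB2 and 0.37 in siCtrl for TMEM175 (500 nt), 0.97 and 0.55 for EMSY (501 nt) and 0.89 and 0.98 for FAM210A (501 nt). Just outside, MTERF4 was at 0.97 and 0.97 and PPM1K at 0.87 and 0.95, each on an exon 1 nt too short, and MRPL38 (498 nt) was at 1.00 in both.

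Skipping reads seen in 1 group alone, at least 10 of them (a minimum set after the values were seen), occurred in 13 long exons in siSNRPB2 and in 16 in siCtrl, against 364 and 403 over all tested exons. Those in siSNRPB2 alone include the exons of SGO1, RAB11FIP1 and C5orf56 given above, XIAP (18 reads among 1472 inclusion-only, ψ 0.91 against 1.00 in siCtrl) and BIRC2, another inhibitor of apoptosis (12 reads, listed for 3 nested exons). None of the XIAP and BIRC2 exons was called. In siCtrl alone, KIAA1217 led with 45 skipping reads. Its 1599-nt coding exon was called higher at ψ 0.92 in siSNRPB2 and 0.60 in siCtrl, with 1394 and 2002 inclusion-only reads. SIPA1L1, a Rap GTPase-activating protein, had 0 in siSNRPB2 and 16 in siCtrl, and was called higher at 0.98 and 0.72.

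What the long exons share beyond length was looked up in GENCODE 29. Of the 782, 712 (91.0%) match an annotated exon, against 96.5% of all tested exons. A fully coding exon was found for 253 (32.4%, against 60.7% of all tested exons), a partly coding one for 241 (30.8%, against 16.7%) and a non-coding one for 218 (27.9%, against 19.1%). Called lower and higher were 23 and 28 of the fully coding (9.09% and 11.07%), against 8.10% and 6.79% of all tested fully coding exons. Of the non-coding, 13 and 23 were called (5.96% and 10.55%), against 7.95% and 8.57% of all tested non-coding exons. Of the partly coding, 12 and 16 were called (4.98% and 6.64%), against 7.61% and 7.13% of all tested exons of any class. The median log2 change of the exon-to-flank ratio was 0.15 in the non-coding (151 with enough flank reads) and -0.00 in the fully coding (198). The SD was 1.01 and 0.65 in that order. Over all tested exons the medians were 0.07 in the non-coding and 0.00 in the fully coding.

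Some long exons contain a shorter splicing pattern. An annotated intron of 50 nt or more lies inside 177 of them (22.6%, against 1.65% of all tested exons), so their inclusion-only reads can come from a transcript that keeps that intron. Of these 14 were called lower (7.91%) and 19 higher (10.73%), close to the 8.09% and 11.003% of all tested exons that span an intron. Of the 605 that span none, 37 were called lower and 52 higher. Among non-coding long exons the median ratio change was 0.25 in those spanning no intron (63) and 0.09 in those spanning one (88). Among the largest lower calls, the exons of FCGRT, SMOX, ZSCAN25, CCDC18-AS1 and UBXN4 span an annotated intron. Other named exons that span one include those of HFE, SLC33A1, PSMA1, TNXB, PILRB, ANK3 and FSIP2.

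Of the fully coding long exons, 135 of 253 (53.4%) are a whole number of codons, against 47.6% of fully coding exons over all tested. Among those with a skipping read in the files it was 44 of 61 (72.1%), and among those without 91 of 192 (47.4%). Over all tested fully coding exons the shares were 57.2% with skipping reads and 41.9% without. NIN, NASP, SGO1, FBXO38, ASPM and RTN4 are all in frame. GC content, taken from annotated exons only, had a median of 50.1% in long exons and 49.2% over all tested exons. It was 48.4% in long exons called lower and 54.2% in those called higher.

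At the ends of the exons, 26.4% of long exons close with CAG and 18.7% with AAG on the transcript strand, against 24.5% and 17.01% of all tested exons, and 41.4% open with G, against 44.0%. NASP closes with AAG, and RTN4 with CAG, as its printed junction shows. The upstream intron of the event had a median length of 3119 nt, against 2189.5 nt over all tested exons, and the downstream intron 2491 nt, against 2038 nt.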

How the data were processed

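Total RNA libraries were stranded, per the labels' protocols. The submitters' processing notes name STAR 2.7 and the hg38 build. MISO estimates were deposited by the authors as a fraction (ψ) with an interval and, per the file headers, with read counts for each class of compatibility with the 2 isoforms. The deposited comparison gives a ψ difference, siSNRPB2 minus siCtrl, as a score below or above 0, and the Bayes factor, a ratio of evidence by the authors that reaches at most 1e+12. Not given in the sources used here are the MISO version, its events, the interval's level and how the 2 libraries of a group were joined.

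Exons were matched by position to GENCODE release 29. Reads scaled to 28884756 (siSNRPB2) and 32816928 (siCtrl) compatible reads over tested exons took a pseudocount of 1. Members, the 8 gene lists and thresholds were chosen with earlier results of these data known. Exons named by rule are the 10 largest calls per direction with at least 50 informative reads, those called by both rules and NASP. The rules also took the 5 longest, known long exons, up to 3 calls per list and those at the length threshold. Other members of the lists, called or not, and SGO1 were chosen after their values were seen. So were the exons taken from the deepest set or from those with skipping reads in 1 group. Floors use 3 counts. Computation used scipy 1.17.1, pandas 2.3.3 and numpy 2.4.6 under Python 3.11.15, and figures matplotlib 3.10.9.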

Additional observations from a re-analysis of the deposited data

Results flagged for a closer look

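Reads that fit neither isoform were used in no comparison. In the events of the 782 long exons they were 30.3% of assigned reads in siSNRPB2 and 28.0% in siCtrl, so the share was higher in siSNRPB2 than in the control file. Over all tested exons the shares were 52.2% and 50.3%. The part that such reads have in any ψ was not tested.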

How the results depend on the processing

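Of 51 lower calls, 29 had a ψ difference of at least 0.2, 22 were in exons of at least 1000 nt, 18 in exons with at least 1 exclusion-only read and 14 in exons with at least 5. Of 71 higher calls, 55, 26, 20 and 19 met these limits in the same order. The read test (21 lower, 26 higher) called 13 lower and 15 higher when each file had 100 or more informative reads, and 11 and 8 at 1000 nt or more. With reads divided by 10, to allow for reads that are not independent, it called 1 lower and 0 higher, so its calls rest on the full read numbers. Division also leaves few reads on many exons, so this setting cannot tell dependence among reads from small counts. Exons with no exclusion-only read numbered 564, and 233 at 1000 nt or more. The limits on length, reads and exclusion-only reads leave fewer exons by construction, while the stricter difference and the divided reads used all 782. Bayes factor minimums from 5 to 100 gave 45 to 53 lower and 54 to 72 higher calls. Leaving out exons that span an intron left 37 and 52, and 1 exon per overlapping group left 47 and 63, both chosen after the data were seen. The median ψ difference was 0 in every setting, and the median log2 ratio change lay between 0.02 and 0.04. No paired analysis was possible because the files hold 1 value per group, and leaving out a library was not possible for the same reason. The authors' interval of ψ had a median width of 0.08 in siSNRPB2 and 0.06 in siCtrl.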
